A study of Mus musculus with 4 samples.

Results

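The values of 5 mouse genes of amino acid stress are described here in 4 total RNA-seq libraries of T-helper 2 (Th2) cells, CD4 T cells that secrete interleukin 4. The genes are Atf4, Atf5, Ddit3, Il4i1 and Mars, 5 of the 50600 genes in the deposited count tables, chosen by name. The libraries, numbered as biological replicates 1 to 4, come from primary cells of strain C57BL/6NJ that were differentiated in culture. They form 1 group with no control, so genes were compared within libraries and each gene was followed between replicates. All 4 carry the same donor identifier, and sex was not collected. A time of 16 hours stands in the file headers and not in the labels.

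Cells that run short of amino acids activate the kinase GCN2, which phosphorylates the initiation factor eIF2 alpha. General translation then slows, while the mRNAs of the transcription factors ATF4 and ATF5 are translated more, because short reading frames in their leaders no longer hold ribosomes back. ATF4 activates genes for amino acid transport, amino acid synthesis and tRNA charging, and also Ddit3, which encodes CHOP, a partner of C/EBP factors linked to prolonged stress. Mars encodes methionyl-tRNA synthetase, which charges methionine onto its tRNA. Il4i1 encodes a secreted oxidase of phenylalanine and other amino acids that interleukin 4 induces in B cells, and it lowers the amino acids available to nearby T cells.

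Library totals ran from 1688658 to 2222583 counts, and the 5 genes together held 0.0508% to 0.0582% of them. Counts are those of 1 strand, as the headers record. Genes with an exon facing an exon on the other strand made up 16.2% of the genes listed and held 91.8 ± 1.35% of the counts (SD, n = 4). Whether the counted strand is the strand of the transcripts was not tested. All levels below are levels on the counted strand, so none is by itself a measure of expression of the gene named. The libraries differed in a ribosomal RNA entry, CT010467.1, at 1.29%, 5.05%, 9.4% and 1.62% of counts in replicates 1 to 4, and in Tsix, at 3465, 2990, 3 and 4 counts. Ddx3y, a gene of the Y chromosome, had 0, 0, 7 and 7 counts. Both genes set replicates 1 and 2 apart from replicates 3 and 4, which goes against 1 animal as the source of all 4 libraries. Of 9 T cell markers all had counts in every library, with Cd4 at 69, 69, 51 and 100 counts. Cd3e, of the T cell receptor complex, had 72 counts in all, while Gm48719, which faces it over 135 bases, had 11264. Of 8 Th2 markers 5 had counts in every library, Gata3 at 17, 20, 19 and 21. The other 3, Il5, Il13 and Il1rl1, had none. Gata3, with 77 counts in all, faces Gm13256, with 3900, over 155 bases. The Th2 marker Ptgdr2, with 765 counts, faces Ccdc86, with 71, over 1031 bases.

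The 5 genes lie at 3 places in the genome (build mm10), and the overlaps there go beyond a pair each. Atf5 (chromosome 7, 44812256 to 44816658, minus strand) starts inside the beginnings of Nup62 and Il4i1, both on the plus strand. Its first exon block shares 82 bases, 4.11% of its exon length, with the first block of each, and these are the same 82 bases for both. Nup62 encodes a nuclear pore protein, and its first block also covers all 97 bases of the first block of Il4i1 on the same strand, so those bases cannot be assigned to 1 of the 2. Il4i1 (chromosome 7, 44816387 to 44840809, plus strand) has most of its exon bases elsewhere, opposite another gene. Its last 5 of 9 blocks, 3423 of 4080 bases or 83.9%, lie within the 6798-base final block of Tbc1d17, a gene of a Rab GTPase regulator on the minus strand. Ddit3 (chromosome 10, 127290774 to 127296288, plus strand) and Mars (chromosome 10, 127296221 to 127311786, minus strand) meet at their 3′ ends over 68 bases, which is 3.97% of the exon length of Ddit3 and 1.99% of that of Mars. At its start Ddit3 also shares 13 bases with Gm4189, a noncoding transcript on the minus strand with 11 counts in all. Atf4 (chromosome 15, 80255184 to 80257540, plus strand) has 3 exon blocks of 1724 bases in all and no exon of another gene on either strand.

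The bases before the start sites are shown because the starts of Atf5 and Nup62 cross each other and because these regions carry the promoters of the stress factors. RefSeq windows of 250 bases before the start (build GRCm38.p6, the same coordinates as mm10) were found for all 5 genes, Mars under its newer symbol Mars1, and for Nup62. Capitals mark the CCAAT box (CCAAT), the GC box (GGGCGG) and the core of the cyclic AMP response element (TGACG), searched on both strands.
Atf4, chr15:80254934-80255183, plus strand: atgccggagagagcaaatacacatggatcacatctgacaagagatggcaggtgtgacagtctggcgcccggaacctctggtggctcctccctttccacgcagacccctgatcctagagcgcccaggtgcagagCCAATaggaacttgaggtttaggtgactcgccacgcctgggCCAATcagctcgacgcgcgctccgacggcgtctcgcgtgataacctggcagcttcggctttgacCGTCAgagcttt
Atf5, outer start, chr7:44816659-44816908, minus strand: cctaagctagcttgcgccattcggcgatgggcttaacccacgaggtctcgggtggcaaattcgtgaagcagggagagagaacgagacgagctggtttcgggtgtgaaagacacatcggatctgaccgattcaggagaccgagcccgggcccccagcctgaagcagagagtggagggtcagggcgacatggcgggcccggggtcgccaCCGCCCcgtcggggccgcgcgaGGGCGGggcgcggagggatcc
Atf5, inner start, chr7:44815659-44815908, minus strand: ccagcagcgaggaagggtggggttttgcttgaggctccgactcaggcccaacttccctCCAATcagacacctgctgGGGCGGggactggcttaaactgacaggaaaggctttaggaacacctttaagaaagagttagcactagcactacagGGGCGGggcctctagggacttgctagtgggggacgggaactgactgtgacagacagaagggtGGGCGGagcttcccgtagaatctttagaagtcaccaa
Nup62, chr7:44815838-44816087, plus strand: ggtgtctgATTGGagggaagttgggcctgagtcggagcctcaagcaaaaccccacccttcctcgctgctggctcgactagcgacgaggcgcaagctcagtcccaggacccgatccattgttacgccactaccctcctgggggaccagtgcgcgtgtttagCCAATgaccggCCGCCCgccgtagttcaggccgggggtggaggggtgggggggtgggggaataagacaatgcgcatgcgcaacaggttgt
Ddit3, chr10:127290543-127290792, plus strand: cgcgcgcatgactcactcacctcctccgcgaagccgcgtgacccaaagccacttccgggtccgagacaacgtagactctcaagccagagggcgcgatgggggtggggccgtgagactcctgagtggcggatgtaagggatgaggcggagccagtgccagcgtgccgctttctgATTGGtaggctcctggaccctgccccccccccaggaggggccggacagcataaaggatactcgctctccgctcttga
Mars, chr10:127311787-127312036, minus strand: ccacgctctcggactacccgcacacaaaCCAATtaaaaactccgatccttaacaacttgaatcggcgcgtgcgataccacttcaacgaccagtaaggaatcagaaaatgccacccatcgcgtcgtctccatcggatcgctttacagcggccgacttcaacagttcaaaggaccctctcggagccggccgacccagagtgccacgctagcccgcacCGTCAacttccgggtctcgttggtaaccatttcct

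The starts of Nup62 and Atf5 in the deposited tables lie 570 bases apart, each gene reading through the start of the other. The windows of Nup62 and of the inner Atf5 start share 71 bases (chromosome 7, 44815838 to 44815908), and the CCAAT box there belongs to both. Atf4 has the box at 117 and 76 bases before its start, Ddit3 at 77 bases on the other strand and Mars at 222 bases. Of 32851 RefSeq windows of this length, 33.8% hold a CCAAT box, 32.7% a GC box and 17.8% the TGACG core. The composite C/EBP-ATF element (TGATGNAA), through which ATF4 acts, is in 3.45% of all windows and in none of those of the 5 genes. The STAT6 element, bound by the factor that relays interleukin 4 signals, is in 5.85% of all windows and in none of theirs either. These letters were searched in this window only. RefSeq starts Il4i1 within the last block of Tbc1d17, whereas the deposited tables start it inside Nup62, and its window is not printed. Of the Ddit3 window, 181 bases fall in listed exons of Gm4189 or of Ddit3 itself.

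Ddit3 had the highest level of the 5 genes on the counted strand. It had 443, 440, 431 and 416 counts in replicates 1 to 4, or 221.5, 222.9, 168.4 and 189.3 TPM, which is counts divided by exon length and scaled to 1000000 over all genes. Its mean was 200.6 ± 26.5 TPM (SD, n = 4). Replicates 1 and 2 were higher than replicates 3 and 4, the same split as in Tsix and Ddx3y, and replicate 3 was lowest. The part of that split in the Ddit3 level was not tested. Atf5 had 401, 405, 549 and 420 counts, or 172.4, 176.4, 184.3 and 164.3 TPM, with a mean of 174.3 ± 8.34 TPM (SD, n = 4). Here replicate 3 was highest and replicate 4 lowest, with a coefficient of variation of 4.78%.

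Atf4, the regulator upstream of Ddit3 and the only member with no exon opposite, had 47, 37, 34 and 62 counts in replicates 1 to 4. Its levels were 23.35, 18.63, 13.2 and 28.04 TPM, with a mean of 20.8 ± 6.36 TPM (SD, n = 4). Replicate 4 was highest and replicate 3 lowest, and the coefficient of variation was 30.6%. The share of all counts in genes with no opposite exon was 8.31%, 7.75%, 6.7% and 9.93% in replicates 1 to 4, the same order of libraries as for Atf4. Scaled over those genes alone, a scale chosen after seeing the data, Atf4 had a coefficient of variation of 25%. The part of this share in the spread of Atf4 was not tested further.

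Mars had 78, 69, 101 and 92 counts, or 19.52, 17.5, 19.75 and 20.96 TPM, with a mean of 19.4 ± 1.43 TPM (SD, n = 4). Its 4 libraries lay close together, with a coefficient of variation of 7.38%. Il4i1 had 13, 3, 15 and 7 counts, or 2.73, 0.638, 2.46 and 1.34 TPM, with a mean of 1.79 ± 0.977 TPM (SD, n = 4). The exact Poisson 95% interval of its count ran from 0.619 to 8.77 in replicate 2 and from 8.4 to 24.7 in replicate 3, so its order between libraries is hardly resolved at this depth. Such intervals cover counting error only.

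**Figure D1:**
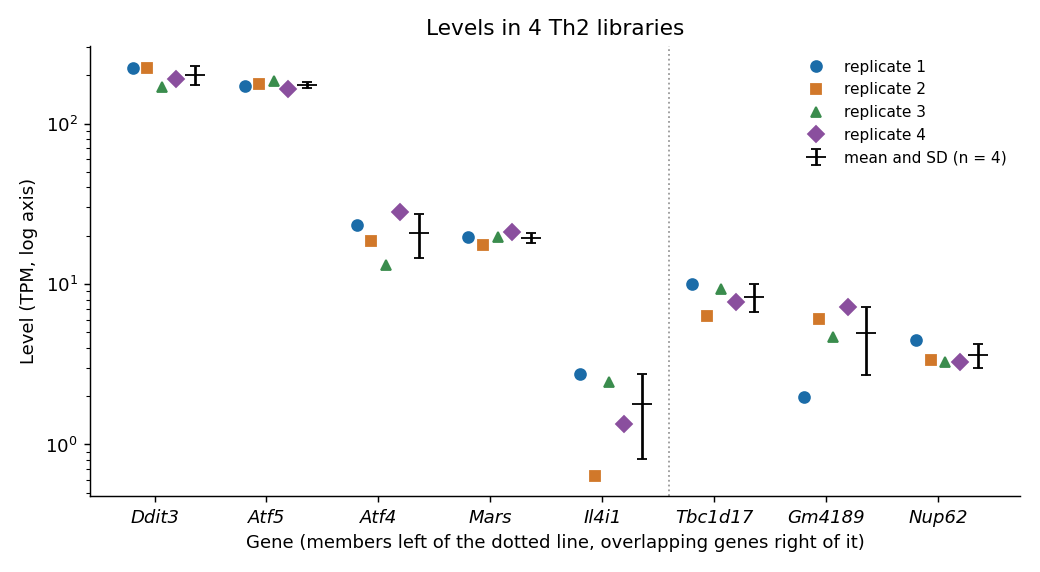
Level in TPM (log axis) of the 5 genes and of the 3 genes that overlap them, with 1 symbol per library and the mean and SD of 4 libraries in black. Ddit3 and Atf5 lie between 164.3 and 222.9 TPM in every library, above Atf4 and Mars, which lie between 13.2 and 28.04 TPM, and above Il4i1, at most 2.73 TPM.

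By mean level the order was Ddit3, Atf5, Atf4, Mars and Il4i1. Ddit3 and Atf5, neighbours in this order, did not differ beyond their spread. The log2 ratio of counts per kilobase of Ddit3 over Atf5 was 0.19 ± 0.23 (SD, n = 4), positive in 3 of 4 libraries, with an exact two-sided sign-flip p of 0.25, and ratios ran from 0.914 to 1.29. Atf4 over Mars was 0.06 ± 0.44 (SD, n = 4), also positive in 3 of 4 libraries, with an exact p of 0.875, and ratios ran from 0.675 to 1.34. Neither result shows that the genes of a pair are at equal levels.

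The gap between the pair at the top and Atf4 was wider than the spread in every library. Ddit3 and Atf5 have an exon opposite and Atf4 has none, and the part of this in the gap was not tested. Ddit3 over Atf4 was 3.30 ± 0.41 on the log2 scale (SD, n = 4), or 9.84-fold, with libraries from 6.71 to 12.6-fold. Atf5 over Atf4 was 3.11 ± 0.53 (SD, n = 4), or 8.61-fold, with libraries from 5.82 to 13.8-fold. Replicate 3 gave the largest of these 4 ratios for both genes and replicate 4 the smallest. Both were positive in 4 of 4 libraries, and in the exact two-sided sign-flip test only 2 of 16 sign patterns gave a mean as far from 0, the fewest that 4 libraries allow, so p cannot fall below 0.05.

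Of members that face each other over part of their exons, 1 gene of each pair held most of the counts, taken over the whole genes. Ddit3 over Mars was 3.35 ± 0.27 per kilobase on the log2 scale (SD, n = 4), or 10.2-fold, with libraries from 8.5 to 12.7-fold and positive in 4 of 4. Of the counts in these genes together, Ddit3 held 85% in replicate 1, with a 95% Wilson interval of 81.7 to 87.8. It held 86.4% (83.2 to 89.1), 81% (77.5 to 84.1) and 81.9% (78.3 to 85) in replicates 2, 3 and 4. The intervals, which cover counting error only, overlap between neighbouring libraries, and replicate 2 lies highest.

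Atf5 over Il4i1 was 6.71 ± 0.88 per kilobase on the log2 scale (SD, n = 4), or 105-fold. Single libraries ran from 60.9-fold in replicate 1 to 237-fold in replicate 2, where Il4i1 had 3 counts. Nup62, which shares the same 82 bases, had 15, 11, 14 and 12 counts and 3.6 ± 0.601 TPM (SD, n = 4), and Atf5 over Nup62 was 5.56 ± 0.24 on the log2 scale (SD, n = 4), or 47-fold. Of the counts in Atf5, Nup62 and Il4i1 together, Atf5 held 93.5% to 96.7% in the 4 libraries. At the other end of Il4i1 the overlap is larger and the ratio was smaller. Counts are per gene and cannot be placed in either overlap, so a link of overlap to ratio was not tested. Tbc1d17 had 114, 71, 135 and 96 counts and 8.34 ± 1.66 TPM (SD, n = 4), and Tbc1d17 over Il4i1 was 2.31 ± 0.59 on the log2 scale (SD, n = 4), or 4.96-fold. Both genes were highest in replicates 1 and 3 and lowest in replicate 2. Each of these 3 ratios was positive in 4 of 4 libraries and at the smallest exact p. Over the 8 ratios compared, Benjamini-Hochberg adjustment gave 0.1667 for the 6 at the smallest p, 0.2857 for Ddit3 over Atf5 and 0.875 for Atf4 over Mars, so none passed 0.05.

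**Figure D2:**
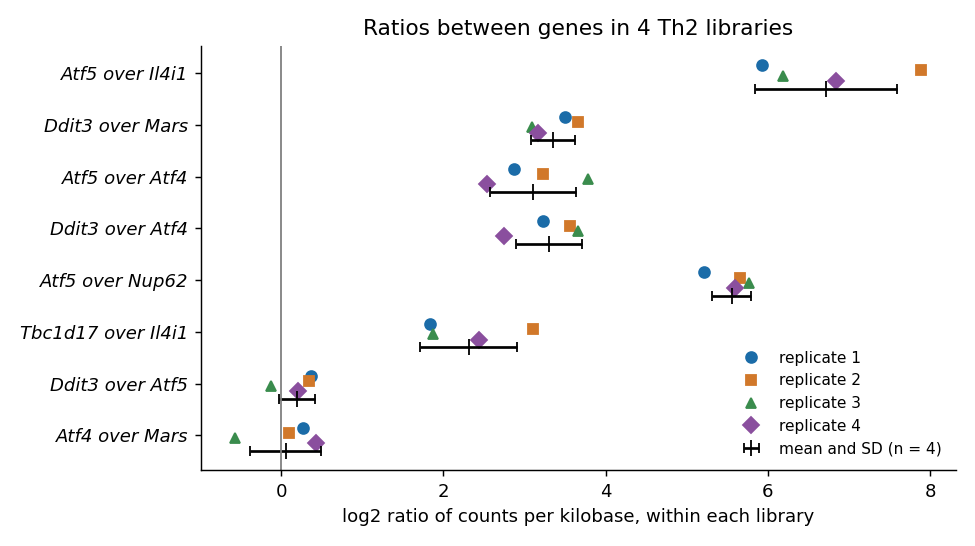
Log2 ratio of counts per kilobase between genes in each library (symbols), with the mean and SD of 4 libraries in black. The ratios of the first 6 pairs are above 0 in every library, while Ddit3 over Atf5 and Atf4 over Mars have replicate 3 below 0.

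Genes that face an exon on the other strand differed in level from those that do not, and the 5 genes fall in 3 classes of 21764 protein-coding genes by the share of exon bases that do so. Among the 16963 genes with none, the median was 0 TPM and the upper quartile 0.835 TPM, and Atf4 ranked 272, at percentile 98.4. The 1976 genes with up to 5% had a median of 0.929 TPM and a 95th percentile of 46.2 TPM. In this class Ddit3 ranked 28, Atf5 ranked 30 and Mars ranked 199. The 78 genes with over 75% had a median of 19.4 TPM, and Il4i1 ranked 50 among them, below that median. Genes with none held 13.1% of protein-coding counts, against 16.4%, 44.7%, 21.2% and 4.68% in the classes up to 5%, 5 to 25%, 25 to 75% and over 75%.

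**Figure D3:**
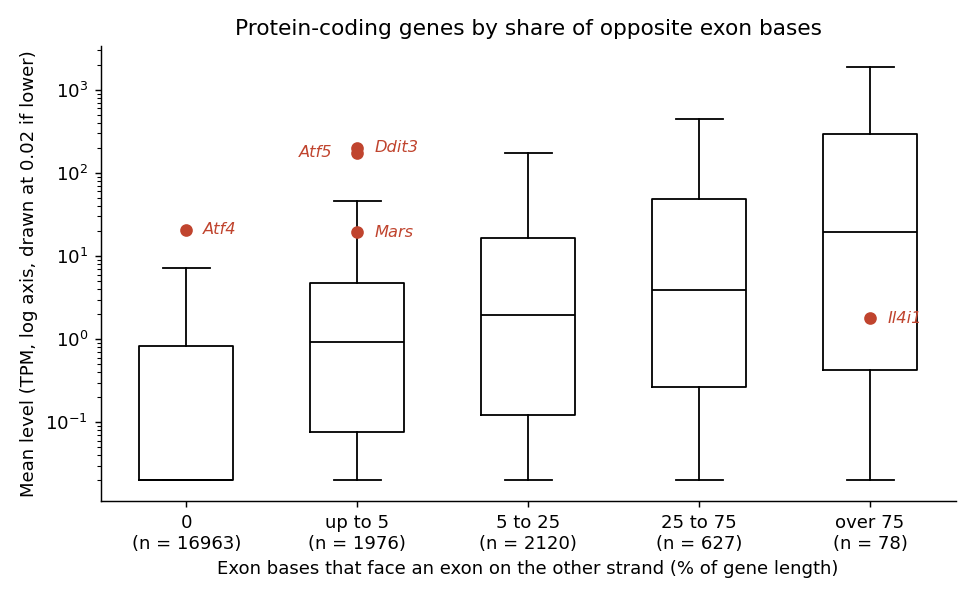
Mean level in TPM (log axis) of protein-coding genes by the percentage of their exon bases that face an exon on the other strand, as boxes of quartiles with whiskers at percentiles 5 and 95, and the 5 genes as red points, with levels under 0.02 drawn at 0.02. Ddit3 and Atf5 lie above the upper whisker of their class and Atf4 above that of genes with none, while Il4i1 lies below the median of its class.

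No member was called for varying between replicates beyond genes of like abundance. Of the 5 genes 4 had enough counts to be tested, and Il4i1 did not. By the one-sided quasi-likelihood test of edgeR, 0 of these 4 passed an adjusted p of 0.05, where the background was 22 of 4918 genes, or 0.447%. At an unadjusted p under 0.05 there were 0 of the 4, where the background was 281 genes, or 5.71%. With 4 genes, counts of 0 are near both shares and say nothing particular of the members. DESeq2 marked none of the 4 as a dispersion outlier. Adjusted edgeR p-values were 0.9876 for Ddit3, 0.9914 for Atf4 and Atf5 and 0.9987 for Mars. Without a count filter Il4i1 had an adjusted edgeR p of 0.898. A p that misses the threshold does not show that a gene is constant.

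Across the 4 libraries, genes with a profile like that of each member were found by the root mean square distance of centred log2 CPM among 1794 protein-coding genes at 10 TPM or more, of which 30.7% had no opposite exon. Closest to Atf4 were Ik, a splicing factor gene, with 122, 99, 93 and 161 counts at a distance of 0.0292, and Ppia, the cyclophilin A gene, with 60, 50, 45 and 79 counts at 0.0349. The median distance to Atf4 was 0.36, and neither gene has an opposite exon. Closest to Atf5 were Ecsit at 0.0145 and Amz1 at 0.0178, closest to Ddit3 were Gm26602 at 0.0213 and 2200002D01Rik at 0.0222, and closest to Mars were Ak3 at 0.0149 and Fhod1 at 0.0192. All 6 have an exon opposite. With 4 libraries this is a description, and close genes may be chance neighbours.

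Of the wider pathway, 128 genes in 11 lists were read, the 5 members included. The 53 that could be tested gave 0 edgeR calls between replicates, near the 0.447% of all genes tested. An opposite exon was present in 39 of the 128, whose median was 4.18 TPM, and absent in 89, whose median was 1.55 TPM. All 5 genes at 100 TPM or more had an opposite exon. They were Psph, Eif2ak1, Ddit3, Atf5 and Hars2, while the highest gene without one was the chaperone gene Hspa5 at 29.9 ± 6.68 TPM (SD, n = 4). Over all protein-coding genes the median was 1.5 TPM with an opposite exon and 0 TPM without, and 39% had counts in every library. At 100 TPM or more there were 36 protein-coding genes with no opposite exon. The classes up to 5%, 5 to 25%, 25 to 75% and over 75% of opposite bases held 53, 179, 112 and 28. Most genes at this level thus have an opposite exon, so 5 of 5 says nothing particular of these lists.

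Among the sensors of the response, the 9 genes of eIF2 alpha kinases, phosphatase subunits and their partners, 7 had counts in every library. Eif2ak1, the kinase that responds to heme shortage and mitochondrial stress, had 2223, 2168, 2421 and 2095 counts and 310.4 ± 27.2 TPM (SD, n = 4). It faces Aimp2, a scaffold of the multisynthetase complex to which methionyl-tRNA synthetase belongs, over 487 bases, and Aimp2 was itself at 53.7 ± 3.89 TPM (SD, n = 4). Eif2ak4, the GCN2 gene, had 5, 22, 19 and 14 counts. The eIF2 alpha gene Eif2s1 was at 8.17 ± 1.79 TPM, and the phosphatase subunit genes Ppp1r15b and Ppp1r15a at 2.41 ± 0.387 and 1.845 ± 1.24 TPM (SD, n = 4). Ppp1r15b faces Gm26616, which had 3797 counts in all, over 640 bases. At the low end, Impact had 8 counts in all and Eif2ak3, the PERK gene, had 1. Eif2ak3 faces Gm43292, which had 638 counts, over 485 bases.

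Of the 15 C/EBP and ATF family genes 8 had counts in every library. Behind Ddit3 and Atf5 came Cebpd, a C/EBP factor gene, at 218, 217, 266 and 247 counts and 49.8 ± 1.64 TPM (SD, n = 4), and it faces Spidr, with 10 counts in all, over 559 bases. Atf4 followed. The lowest in TPM among those with a count were Atf6 at 0.127 TPM and Cebpa at 0.0813 TPM, with 6 counts and 1 count. Of the 18 stress genes that ATF4 activates, 6 had counts in every library and 5 had none. These shares were 33.3% and 27.8%, against 39% and 43.5% over all protein-coding genes. The 5 with none were the glutathione-degrading enzyme gene Chac1, Nupr1, Vldlr, Fgf21 and Cth. A count of 0 allows up to 3 counts, or a CPM of 1.35 to 1.78 in the 4 libraries. This bound covers counting error on the counted strand only and sets no limit on expression of these genes. The highest were Atf3 at 5.21 ± 1.55, Cebpb at 3.57 ± 2.41, Eif4ebp1 at 2.43 ± 1.51 and Cebpg at 1.95 ± 0.415 TPM (SD, n = 4). Cebpb, with 29 counts in all, faces Tmem189, with 631, over 312 bases. Asns, the asparagine synthetase gene, had 2 counts, both in replicate 1, and Gpt2 had 3. The median of this list was 0.287 TPM, against 0.128 TPM over all protein-coding genes. For the 15 of its 18 genes with no opposite exon it was 0.163 TPM, against 0 TPM over protein-coding genes without one.

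Of 14 genes of serine, glycine, proline and asparagine synthesis, 12 had counts in every library. Psph, which makes serine from its phosphate, had 2480, 2395, 3300 and 2622 counts and 488.3 ± 16.4 TPM (SD, n = 4), the highest level of all 128 genes. It faces the chaperonin subunit gene Cct6a, which had 408 counts in all, over 452 bases. Next came Shmt1 at 19.2 ± 2.82, Shmt2 at 7.97 ± 3.1 and Mthfd1l at 6.34 ± 2.42 TPM, and Glul was at 1 ± 0.797 TPM (SD, n = 4). Glul, with 16 counts in all, faces Teddm2, with 1138, over 116 bases, and Shmt1, with 380, faces Smcr8, with 1219, over 184 bases. Among 12 amino acid transporter genes, Slc3a2, which encodes the shared heavy chain of several exchangers, was at 12.6 ± 1.55 TPM. The transporter genes Slc38a1, Slc7a5 and Slc1a5 were at 7.85 ± 0.94, 6.65 ± 3.46 and 5.47 ± 1.72 TPM (SD, n = 4). Slc7a11 and Slc1a4 had 9 counts each in all, and Slc7a3 had none.

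Mars was near the top of its enzyme family. All 20 cytosolic aminoacyl-tRNA synthetase genes had counts in every library, against 39% of protein-coding genes, and their median was 5.07 TPM. Qars was highest at 19.9 ± 3.48, then Mars, Nars at 17.2 ± 4 and Vars at 15.8 ± 5.9 TPM, while Farsa and Yars were lowest at 1.91 ± 1.06 and 1.68 ± 0.953 TPM (SD, n = 4). The 14 of these genes with no opposite exon had a median of 5.69 TPM and the 6 with one had 3.48 TPM. Of 17 mitochondrial synthetase genes 14 had counts in every library, with a median of 1.12 TPM. Hars2 was highest at 157.4 ± 7.27 TPM and faces Hars, at 12 ± 4.79 TPM, over 195 bases (SD, n = 4). Fars2, Iars2 and Ears2 followed at 26.95 ± 7.67, 11.2 ± 1.16 and 10.25 ± 1.65 TPM, and Mars2, the mitochondrial counterpart of Mars, averaged 4.06 ± 1.06 TPM (SD, n = 4) and faces no exon. At the low end, Wars2 had 7 counts in all. The other scaffold genes of the complex, Aimp1 and Eef1e1, were at 10.6 ± 0.927 and 6.38 ± 1.58 TPM (SD, n = 4).

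Il4i1 was the third of 11 genes of amino acid degrading enzymes known from immune cells. Arg2 and Arg1, the arginase genes, were at 12.6 ± 1.81 and 9.04 ± 2.53 TPM (SD, n = 4), and Arg1, with no opposite exon, had 16, 23, 41 and 25 counts. Kmo had 18 counts in all, Tdo2 8 and Nos2 1, and Ido1, Ido2, Dao, Ddo and Kynu had none. Genes with none made up 45.5% of this list, near the 43.5% over all protein-coding genes. The aryl hydrocarbon receptor, which products of the Il4i1 enzyme can activate, had 4 counts in Ahr, and of its partner and targets Arnt had 19, Tiparp 3 and Ahrr 2, with none in Cyp1a1, Cyp1b1 and Nqo1. B cells, macrophages and dendritic cells can also express Il4i1. Their markers summed to 10.3 to 16.5, 140 to 169 and 13.1 to 21 TPM in the 4 libraries, with counts in every library for 2 of 6, 2 of 7 and 2 of 7 genes. Cd79b, Ms4a1 and Pax5 of B cells, Lyz2, Itgam, Adgre1 and Cd14 of macrophages and Itgax, Cd209a and H2-Aa of dendritic cells had no count. Csf1r held most of the macrophage sum, at 155.1 ± 14.5 TPM (SD, n = 4), and faces Hmgxb3 over 871 bases. The part of such cells in the Il4i1 counts was not tested, and in bulk RNA fewer cells of a type and less RNA per cell cannot be told apart.

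**Figure D4:**
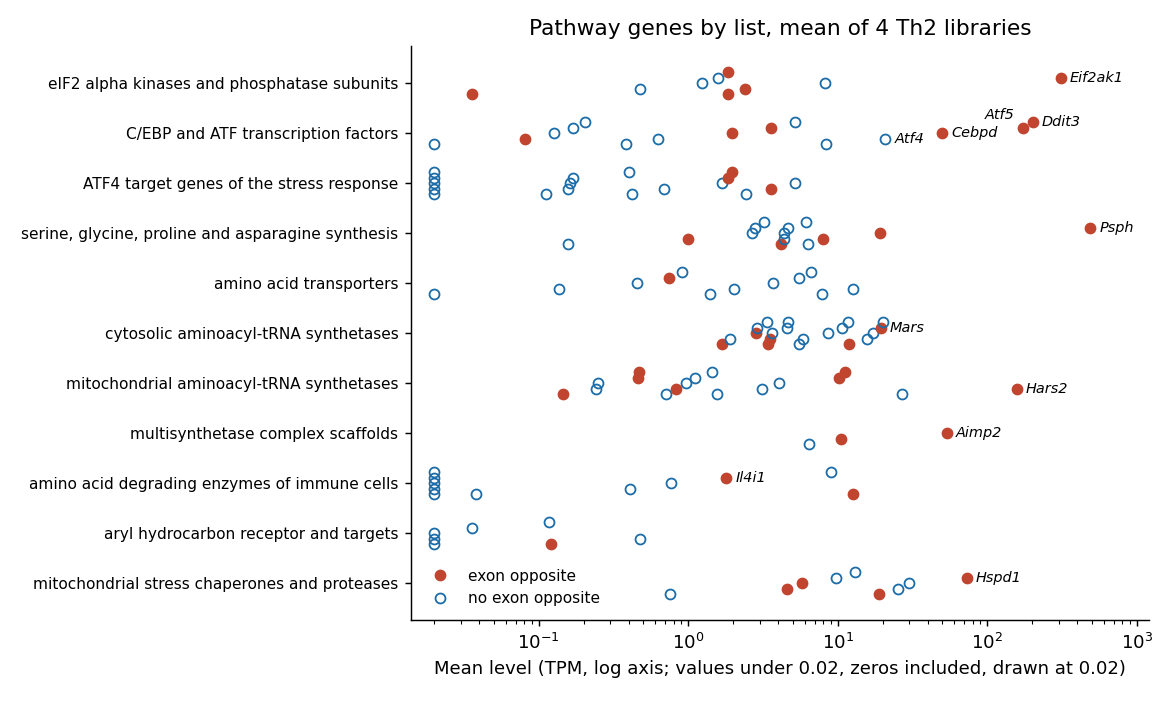
Mean level in TPM (log axis) of the genes of 11 pathway lists, 1 point per gene, filled where an exon faces it on the other strand and open where none does; levels under 0.02, zeros included, are drawn at 0.02. The 5 points at 100 TPM or more, Psph, Eif2ak1, Ddit3, Atf5 and Hars2, are filled, and the open points end at 29.9 TPM.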

How the data were processed

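The authors deposited 1 table of counts per gene for each of 4 libraries, made with featureCounts 1.4.6-p4 on GENCODE release M13, per the file headers, with exons grouped by gene, read pairs aligned at both ends and the strand option at 1. The build is mm10, per the labels. The counts are not normalised, and fragments that meet exons of 2 genes on the counted strand may be missing from both. No source used here gives the strand of the library kit. The labels call the assay total RNA-seq, but the linked protocol is named for poly(A) RNA.

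TPM was computed here from counts and deposited exon lengths. Symbols came from GENCODE release M21 by gene identifier (99.6% of 50600 genes), exon overlaps from bedtools 2.31.1, and promoter windows from RefSeq (GRCm38.p6). Log2 ratios of counts per kilobase, with 0.5 added to each count, were tested by flipping signs over all 16 patterns (exact, two-sided). Variation between replicates was tested over all genes with edgeR 4.0.16 (intercept only, TMM, filterByExpr with a minimum count of 10, robust), one-sided, with 3 residual degrees of freedom and Benjamini-Hochberg adjustment at 0.05. DESeq2 1.42.0 size factors and dispersion outliers, other filters, priors, pseudocounts and scalings, and leaving out each replicate served as alternatives. Scripts ran in R 4.3.3 and in Python 3.11.15 with pandas 2.3.3 and scipy 1.17.1.

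The members and lists were chosen with earlier results of these data known. The genes named are the 5 members, every gene that overlaps them, the 4 highest and up to 2 lowest genes with a count of each pathway list, and the 2 genes closest in profile to each member tested. The facing genes of Psph, Eif2ak1, Eif2ak3, Ppp1r15b, Cebpd, Cebpb, Glul, Shmt1 and Hars2 were chosen after their values were seen. So were Eif2ak4, Mars2, Cd3e, Gm48719, Gm13256, Ptgdr2, Ccdc86, Tsix, Ddx3y and CT010467.1. Some genes that the rule covers are not reported here. For the marker lists the same rule was set but only counts and examples are given. Every pair of libraries differed beyond sampling noise (chi-square of 4.2 to 24.4 per degree of freedom). The labels give 1 donor identifier for all replicates, while Tsix and Ddx3y differ between replicates 1 and 2 and replicates 3 and 4. Which libraries share an animal is not known, so the p-values measure a spread whose source, animal or technical, cannot be told apart.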

Additional observations from a re-analysis of the deposited data

Results flagged for a closer look

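Nup62, which shares the first exon bases of Il4i1 and faces Atf5, had 4.5 TPM in replicate 1 and 3.34, 3.28 and 3.28 TPM in replicates 2, 3 and 4. The gap of replicate 1 to the nearest library was 0.945 of the whole range, above the limit of Dixon's test at 95% for 4 samples, and it rests on 15 counts against 11, 14 and 12. Chance flags about 1 in 20 such groups, and 16 were looked at.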

How the results depend on the processing

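The 4 ratios of Atf5 over Il4i1, Ddit3 over Mars, Atf5 over Atf4 and Ddit3 over Atf4 stayed positive under other pseudocounts, without length scaling, on log2(TPM + 1) and without each replicate. Atf5 over Il4i1, at 6.71, was 6.06 with 5 added to each count, 6.05 on log2(TPM + 1) and 5.68 without length scaling, and Ddit3 over Mars, at 3.35, was 2.36 without length scaling, moves of over 1.5 times in fold. Without a replicate the ratios ran from 6.32 to 6.97, 3.25 to 3.44, 2.88 to 3.29 and 3.18 to 3.48. The count of members called stayed at 0 under every alternative, also without each replicate (0 to 0). The count of all genes called was 22 and moved to 2 with library totals only, 35 with a minimum count of 5, 56 with no count filter and 9 with a non-robust prior. Leaving out a replicate gave 11 to 21, the 11 without replicate 4, of which 10 were among the 22. It was 21 with bias-adjusted deviances, an alternative chosen after seeing the data, and 22 with DESeq2 size factors and as DESeq2 dispersion outliers. The cause was not tested. With TPM taken over protein-coding nuclear genes alone, the members came out 4.2 to 4.28 times as high. Scaled over genes with no opposite exon, the scale chosen after seeing the data, Atf4 was at 246.3 against 20.8 TPM. As CPM with TMM, which leaves out gene length, Atf5, Ddit3, Mars and Il4i1 were at 244.1, 240.3, 46.5 and 5.16, and Atf4 at 24.8. Depth limits Il4i1, with 3 to 15 counts a library, and the genes at 0.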

Other observations

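Stress in mitochondria reaches the same pathway through the protease OMA1 and its substrate DELE1, which activates the Eif2ak1 kinase. Oma1 had 8 counts in all and Dele1 had 17, 16, 15 and 7, or 4.57 ± 1.74 TPM (SD, n = 4), with 151 bases opposite 1700086O06Rik. Of the 9 genes of mitochondrial stress chaperones and proteases 8 had counts in every library. Of the 6 tested 0 were called by edgeR, against 0.447% of all genes tested, a share at which none of 6 says nothing of the list. Hspd1 was highest at 72.8 ± 20.9 TPM and Hspe1, its co-chaperone gene on the other strand with 112 bases shared, was at 18.7 ± 5 TPM, while Hspa9, which faces no exon, averaged 25.2 ± 8.46 TPM (SD, n = 4).

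Among 1059 overlapping pairs of protein-coding genes on opposite strands with 100 counts or more, the level per kilobase of the larger over the smaller gene had a median of 10.4. Ddit3 and Mars, at 10.1, lay at percentile 49.5 of these pairs. Atf5 and Il4i1, at 90.8, lay at percentile 86.7, Atf5 and Nup62, at 47.6, at 78.2, and Il4i1 and Tbc1d17, at 4.41, at 31.8. These ratios are of counts summed over the 4 libraries.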
